A study of Rattus norvegicus with 4 samples.

Results

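The genes of the circadian clock and of its direct output were examined in the rat uterus before implantation, with and without ormeloxifene. Of the 10 genes listed, 9 had a probe set whose only gene symbol was theirs (Bmal1, Npas2, Nfil3, Dbp, Tef, Per1, Per2, Per3 and Nr1d1), among 18166 genes tested; each had 1 such probe set, and Nr1d2 was not analysed here. Uteri came from Sprague Dawley rats, adults of 10 to 12 weeks, on day 5 of pregnancy, and 100 ng of total RNA per sample was labelled for Affymetrix whole-transcript arrays. The treated group (T) had received ormeloxifene by mouth on pregnancy day 1, at 1.25 mg per kg with gum acacia, and the control group (C) had been given the vehicle alone. Ormeloxifene, an oral contraceptive, is a selective modulator of oestrogen receptors. Each group had 2 arrays, labelled biological replicates 1 and 2. The sources used here give neither the number of rats behind an array nor the hour at which tissue was taken.

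The clock is a feedback loop of transcription. Bmal1 pairs with Clock or with its relative Npas2 and activates genes through E-boxes, among them the Per genes, Nr1d1 and Dbp. Period proteins repress Bmal1 and its partner, and Nr1d1 (Rev-erb alpha) represses Bmal1, Npas2 and Nfil3 through ROR elements. Dbp and Tef are activators that bind D-boxes, and Nfil3 is a repressor that binds the same sites. In peripheral tissues with a running clock, Bmal1, Npas2 and Nfil3 peak at times of day roughly opposite to those of Dbp, Tef, Nr1d1 and the Per genes. The clock runs in the uterus too, and mice without Bmal1 have impaired implantation.

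Letters of these elements were searched in RefSeq's sequence around their start sites (GRCr8, from 250 bases before to 50 bases after each start). The members had 11 such entries, Nr1d1 with 2 of them and Nr1d2 included. The 30-base stretches that held a match are shown 5′ to 3′ on the strand of the gene, with the matched letters in capitals, because these letters are the core of the elements named above; a match is not evidence of binding.

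Bmal1, ROR element core, chr1:176766301-176766330, plus strand: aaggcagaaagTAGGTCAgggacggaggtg
Nr1d1, first entry, E-box variant, chr10:84231969-84231998, minus strand: cgcatagagctcAACGTGcccgctgctgga
Nr1d1, second entry, E-box, chr10:84229628-84229657, minus strand: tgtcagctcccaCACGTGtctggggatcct
Tef, E-box, chr7:115206617-115206646, plus strand: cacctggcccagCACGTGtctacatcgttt
Per2, E-box variant, chr9:99497038-99497067, minus strand: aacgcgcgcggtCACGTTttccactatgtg
Per2, D-box, chr9:99497167-99497196, minus strand: ccatgtgcgtcTTATGTAAagagagcgacg

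The letters searched on both strands were CACGTG (E-box), CACGTT (E-box variant), TTATGTAA and TTACGTAA (D-box) and TAGGTCA (ROR element core); the E-box reads the same on both strands, and no match overlapped another. Of all 33469 entries of this length, 6.42% held the E-box, 4.83% its variant, 0.893% and 0.12% the D-box forms and 2.63% the ROR core. The windows of Npas2, Nfil3, Dbp, Per1, Per3 and Nr1d2 held none of these letters, which says only that they are not in these windows. For Nr1d1, the start of the first entry coincides with the outer end of the gene, and the 250 bases upstream of it (chr10:84231813-84232062, minus strand) are shown because this gene had the widest range over the arrays. The capitals mark the E-box variant.

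Nr1d1 upstream: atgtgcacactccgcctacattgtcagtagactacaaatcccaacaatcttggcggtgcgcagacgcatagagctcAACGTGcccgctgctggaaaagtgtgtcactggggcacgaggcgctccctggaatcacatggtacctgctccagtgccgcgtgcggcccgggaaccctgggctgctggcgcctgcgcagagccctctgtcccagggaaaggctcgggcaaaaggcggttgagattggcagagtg

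The comparison asked how clock transcripts of the uterus differed between rats fed ormeloxifene and rats given vehicle. Mean signals of Bmal1, Npas2 and Nfil3 were lower with ormeloxifene, by 1.48-fold, 1.19-fold and 1.75-fold. These genes peak roughly opposite to Dbp, Tef, Nr1d1 and the Per genes. Means of Dbp, Tef, Per3 and Nr1d1 were higher, by 1.46-fold, 1.30-fold, 1.45-fold and 1.50-fold. Per1 and Per2, of the same set as Dbp, Tef, Per3 and Nr1d1, differed little between the group means, at 1.02-fold and 1.06-fold. None of the 9 passed an adjusted p of 0.05 by limma (adjusted p = 1.00 for each), and 0 of the 18166 genes did (0% in that comparison), although 399 genes stood at an unadjusted p under 0.05. In bulk tissue, less RNA per cell and fewer cells of the type that makes it cannot be told apart.

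Values below are log2 signals after quantile normalization, in which a step of 1 is a doubling. Each difference is ormeloxifene minus vehicle, given with its standard error, and p-values are from limma fitted over all genes. With 2 arrays against 2, the smallest p that an exact permutation test can give for any gene is 0.333. Arrays with the same replicate number held 1039 exactly equal deposited values and the other pairs held 0. From these equal values each number was read as a possible processing batch that contains both groups. The main fit did not include the number. For each clock gene the differences within number 1 and number 2 and the fit with the number as a block therefore stand beside the main value, and for the other lists the count under the block is given. The sources used here do not say whether arrays of a number shared a day or a hybridisation.

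**Figure D1:**
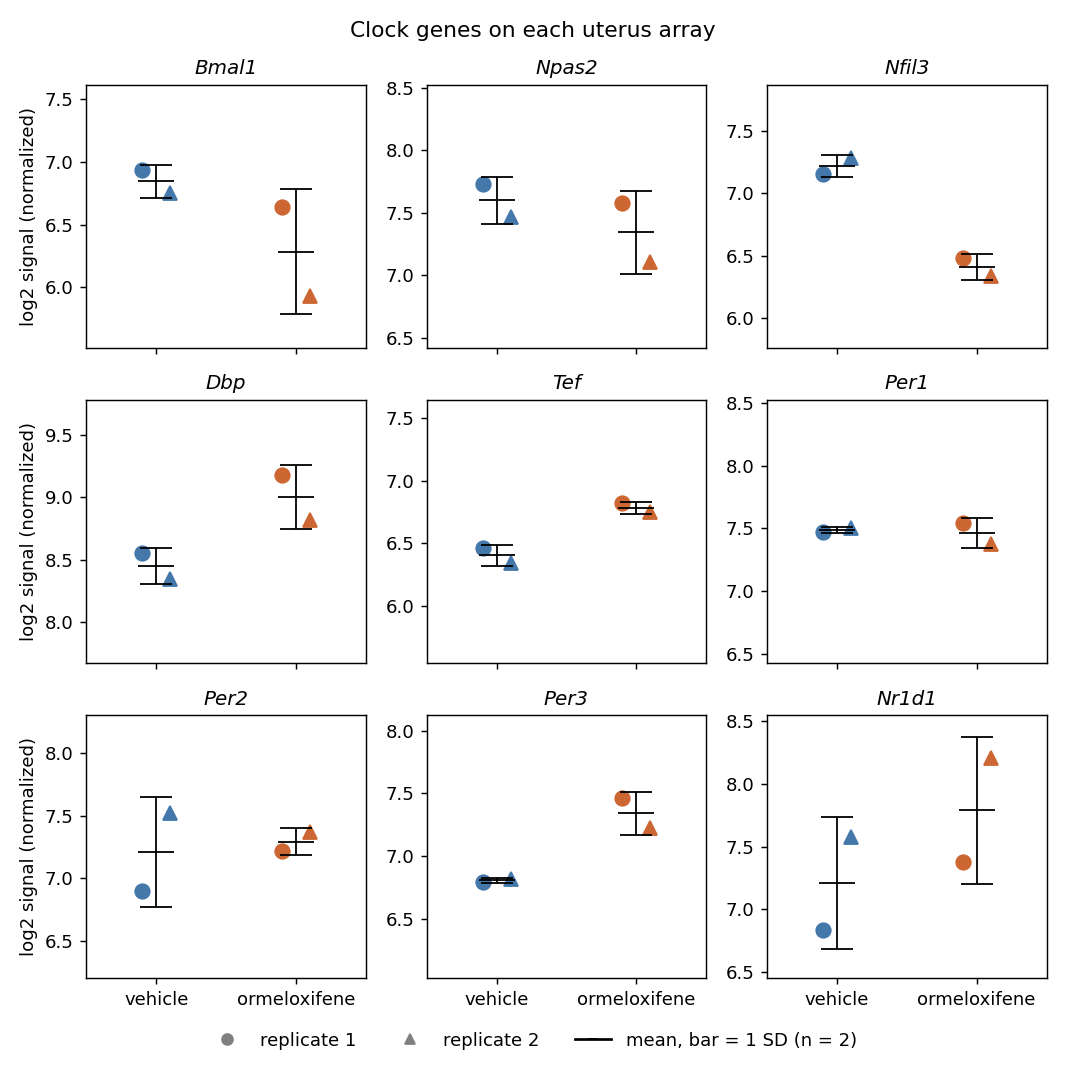
Normalized log2 signal of the 9 clock genes on each array, vehicle in blue and ormeloxifene in orange, with circles for replicate 1 and triangles for replicate 2; the horizontal marks are group means and the bars 1 SD over 2 arrays, and every panel spans the same number of log2 units. The groups stand apart for Bmal1, Nfil3, Dbp, Tef and Per3, and in Nr1d1 the replicate numbers stand apart more than the groups.

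Nfil3, the D-box repressor, had the largest difference of the 9. Its signal was 7.16 and 7.28 on the vehicle arrays and 6.49 and 6.34 on the ormeloxifene arrays. The groups did not overlap, and the gap between them was several times the spread inside either group. The difference was -0.81 ± 0.21 (95% interval -1.29 to -0.32, unadjusted p = 0.00516). It was -0.67 within number 1 and -0.94 within number 2, and under the block the unadjusted p was 0.00144 (adjusted p = 0.336). Of all genes tested, 41 (0.226%) had a difference at least as low. The unadjusted p of Nfil3 lay between 0.000349 and 0.0432 under the 12 alternative settings tried, and its adjusted p between 0.0653 and 1.00.

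Bmal1, the activator at the centre of the loop, read 6.94 and 6.75 with vehicle and 6.64 and 5.93 with ormeloxifene. The groups did not overlap, but ormeloxifene replicate 2 stood well below the other 3 arrays, whose values lay close together. The difference was -0.56 ± 0.28 (-1.20 to 0.08, unadjusted p = 0.0772). Within number 1 it was -0.30 and within number 2 -0.82, with an unadjusted p of 0.0168 under the block. It came to -0.21 without ormeloxifene replicate 2 and -0.92 without ormeloxifene replicate 1, so its size rested on which treated array was kept.

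Npas2, the partner that can replace Clock, read 7.73 and 7.46 with vehicle and 7.58 and 7.11 with ormeloxifene. The groups overlapped, since ormeloxifene replicate 1 lay above vehicle replicate 2. The difference was -0.25 ± 0.24 (-0.82 to 0.32), or -0.16 and -0.35 within the numbers, and -0.02 without ormeloxifene replicate 2. The unadjusted p was 0.330, and 0.167 under the block.

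Dbp, the D-box activator taken as a classic output of the clock, lay at the 93.8th percentile of mean signal. It read 8.55 and 8.35 with vehicle and 9.18 and 8.82 with ormeloxifene. Both treated arrays were above both controls. The difference was 0.55 ± 0.23 (0.02 to 1.08, unadjusted p = 0.0437). It was 0.63 within number 1 and 0.47 within number 2, with an unadjusted p of 0.0104 under the block. The difference was 0.37 without ormeloxifene replicate 1 and 0.73 without ormeloxifene replicate 2.

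Tef, a D-box activator of the same family as Dbp, read 6.46 and 6.34 with vehicle and 6.82 and 6.75 with ormeloxifene. The arrays of each group lay close together and the groups did not overlap. The difference was 0.38 ± 0.20 (-0.10 to 0.86, unadjusted p = 0.102). It varied little between the numbers, at 0.35 and 0.41, with an unadjusted p of 0.0491 under the block.

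The 3 Period genes encode repressors of the loop. Per3 read 6.79 and 6.82 with vehicle and 7.46 and 7.22 with ormeloxifene, so that the groups stood clearly apart. Its difference was 0.53 ± 0.21 (0.04 to 1.03, unadjusted p = 0.0362), with 0.67 and 0.40 within the numbers and an unadjusted p of 0.0136 under the block. Per1, whose promoter also answers to hormones and stress signals, had nearly level values. It read 7.47 and 7.50 with vehicle and 7.55 and 7.38 with ormeloxifene. Its difference was -0.02 ± 0.21, with an interval of -0.50 to 0.46 that includes changes of the size seen for Tef. Per2 read 6.90 and 7.52 with vehicle and 7.22 and 7.37 with ormeloxifene, so that both treated arrays lay between the controls. The difference of Per2 was 0.08 ± 0.26 (-0.52 to 0.69), and it had opposite signs within the numbers, at 0.31 and -0.15. Per1 also changed sign between the numbers, at 0.08 and -0.13. Under the block the unadjusted p was 0.888 for Per1 and 0.667 for Per2. Whether Per3 differed from Per1 or Per2 in its response was not tested.

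Nr1d1, the nuclear receptor that represses Bmal1, had the widest range over the 4 arrays, 1.37. It read 6.83 and 7.58 with vehicle and 7.37 and 8.21 with ormeloxifene. The groups overlapped, and replicate 2 lay above replicate 1 by 0.74 with vehicle and by 0.83 with ormeloxifene, more than the treatment difference of 0.58 ± 0.35 (-0.23 to 1.40, unadjusted p = 0.137). Within the numbers the difference was steady, at 0.54 and 0.63, and under the block its unadjusted p was 0.00745 (adjusted p = 0.534). It was 0.17 without ormeloxifene replicate 2, 0.21 without vehicle replicate 1, 0.96 without vehicle replicate 2 and 1.00 without ormeloxifene replicate 1. Fits with an array left out had no block, so the gap between the replicate numbers entered these 4 values. The span of Nr1d1 overlaps that of the thyroid hormone receptor gene Thra in RefSeq, and the sources used here do not say how the array's probes treat strand. Thra, chosen for this overlap after the values were seen, differed by 0.09 ± 0.22.

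**Figure D2:**
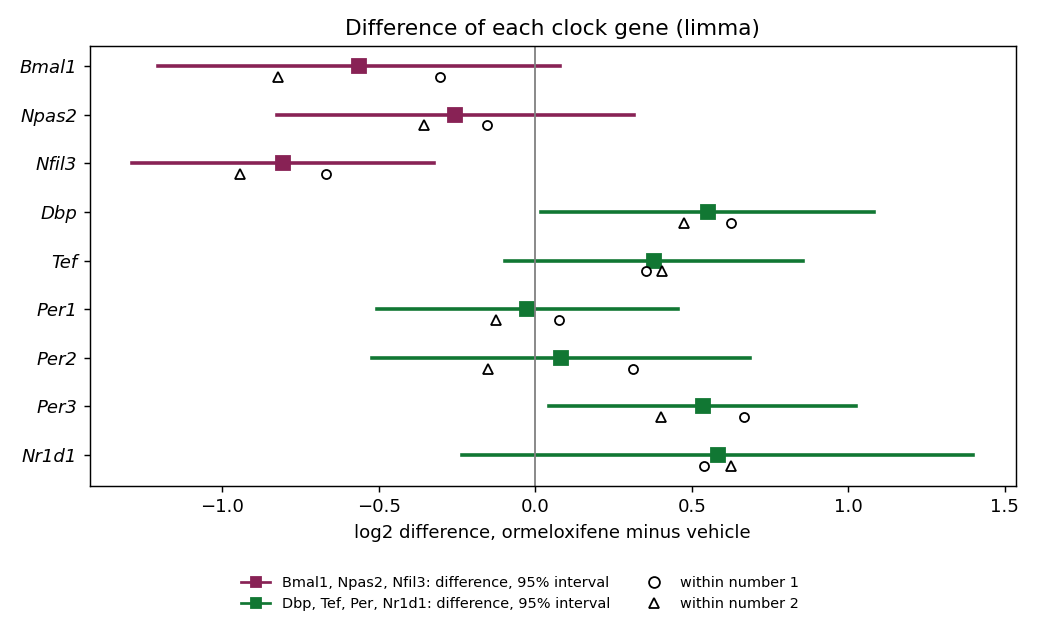
Difference of each clock gene, ormeloxifene minus vehicle in log2 units, as squares with 95% intervals from limma without a block; open circles and triangles are the differences within number 1 and number 2. The intervals of Nfil3, Dbp and Per3 leave out 0. Within both numbers Bmal1, Npas2 and Nfil3 lie below 0 and Dbp, Tef, Per3 and Nr1d1 above it. Per1 and Per2 lie above 0 within number 1 and below it within number 2.

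Members were chosen with earlier results of these data known, so counts and medians beside all genes describe the list and test nothing. By counts, 2 of the 9 clock genes (Dbp and Per3) had higher means at an unadjusted p under 0.05, against 1.12% of all genes, and 1 (Nfil3) was lower, against 1.08%. Under the block there were 4 higher (Dbp, Tef, Per3 and Nr1d1), against 3.74% of genes, and 2 lower (Bmal1 and Nfil3), against 3.02%; 0 of the 9 passed the adjusted threshold in that fit either, in which 0.0165% of genes were higher and 0.0110% lower. The 2 higher at an unadjusted p were not the same without each array. Leaving out ormeloxifene replicate 1 or vehicle replicate 2 left Nr1d1 alone, and leaving out ormeloxifene replicate 2 or vehicle replicate 1 left Dbp alone. Those fits had no block, so any gap between the replicate numbers entered their differences. No higher clock gene was left on the values as deposited, with arrays centred on their medians or with all probe sets tested. Nfil3 remained the lower gene in each of these 7 settings, joined by Bmal1 without ormeloxifene replicate 1.

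Groups did not overlap for 3 genes with higher values (Dbp, Tef and Per3), against 13.9% of all genes, and for 2 with lower values (Bmal1 and Nfil3), against 11.8%. An absolute difference of at least 0.5 was reached by 5 of the 9 and by 3.63% of all genes. That bound was set after the values were seen, and the list was chosen with earlier results known. The absolute difference had a median of 0.53 over the 9 genes and 0.13 over all genes. The signed median over the 9 was 0.08, against 0.02 over all genes, since the genes lay on both sides. Bmal1, Npas2 and Nfil3 had a median of -0.56 (-0.30 within number 1 and -0.82 within number 2), and Dbp, Tef, Nr1d1 and the Per genes 0.46 (0.45 and 0.40).

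**Figure D3:**
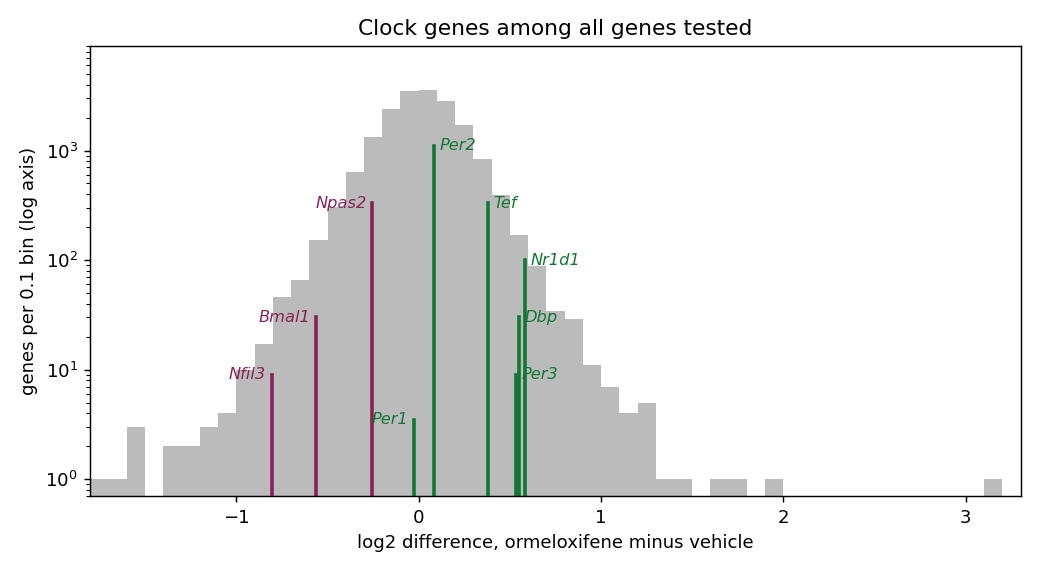
Number of genes at each log2 difference, ormeloxifene minus vehicle, for all 18166 genes tested in bins of 0.1 on a log axis, with the clock genes as lines whose heights serve only to place the names. Nfil3 and Bmal1 lie in the lower tail, Nr1d1, Dbp and Per3 in the upper tail, and Per1 and Per2 near the middle.

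Because the column medians differed before normalization, the sets were also compared inside each array, where any shift common to the array cancels. Each gene was first centred on its mean over the 4 arrays, and the mean of Bmal1, Npas2 and Nfil3 was taken from the mean of the other 6. The result was -0.59 and -0.30 on the vehicle arrays and 0.21 and 0.68 on the ormeloxifene arrays. Both treated arrays thus lay above both controls, and the group means differed by 0.89. On the values as deposited the same quantity was -0.59 and -0.30 with vehicle and 0.18 and 0.70 with ormeloxifene. This contrast was composed after the values were seen and is a description with no test.

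Of 13 further loop genes listed, 10 were measured, of which 5 had higher and 5 lower means, with 0 at an unadjusted p under 0.05 with or without the block; the others were not analysed here. Their differences ran from -0.30 to 0.16, with a median of 0.01. The 4 of smallest p were all lower with ormeloxifene. Clock, the partner of Bmal1, read 8.08 and 8.42 with vehicle and 7.98 and 7.96 with ormeloxifene, a difference of -0.28 ± 0.22. Cry1, a repressor that works with the Period proteins, read 6.44 and 6.77 against 6.11 and 6.50, a difference of -0.30 ± 0.24 with groups that overlapped. Bhlhe41, an E-box repressor also called Dec2, differed by -0.20 ± 0.21, and Timeless, a replication fork factor linked to the clock, by -0.20 ± 0.21. Ciart, a repressor of Bmal1 and its partner, was dim, at the 33.6th percentile, and differed by 0.49 within number 1 and -0.24 within number 2.

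Kinases and ubiquitin enzymes that set the lifetime of clock proteins were close to level. Of 11 listed, 9 were measured, with 6 higher and 3 lower means, 0 of them at an unadjusted p under 0.05 with or without the block, and differences from -0.21 to 0.17. The 4 of smallest p were the deubiquitinase Usp2 (-0.21 ± 0.23), the casein kinase Csnk1d (0.17 ± 0.26), the AMP-activated kinase subunit Prkaa1 (0.15 ± 0.24) and Gsk3b (0.09 ± 0.22). Usp2, itself a rhythmic gene in many tissues, differed by 0.07 within number 1 and -0.49 within number 2. Of 10 further output genes of the clock, 9 were measured. Among these 8 had lower means and 1 a higher mean, where 8464 of all 18166 genes were lower. Their median was -0.14, with 0 at an unadjusted p under 0.05 in either fit. Wee1, a mitotic inhibitor with E-boxes in its promoter, differed by -0.29 ± 0.21. The cell cycle inhibitor Cdkn1a differed by -0.23 ± 0.20, the transferrin receptor Tfrc by -0.23 ± 0.22 and Vegfa by -0.20 ± 0.28. Nampt, an enzyme of NAD synthesis, differed by -0.04 ± 0.20.

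Glucocorticoids act on Per1 and on clocks in many tissues, so 12 genes known to respond to them were listed, of which 11 were measured. Their means lay on both sides, 6 higher and 5 lower, with a median of 0.08. At an unadjusted p under 0.05 there were 2, both higher, against 1.12% of all genes. Under the block there were 4. They were the same 2 higher genes, against 3.74% of all genes, and 2 lower, the metallothioneins Mt1 and Mt2A, against 3.02%. The transcription factor Zbtb16 read 7.98 and 7.88 with vehicle and 8.59 and 8.33 with ormeloxifene, a difference of 0.53 ± 0.21. Tsc22d3, which encodes the glucocorticoid-induced leucine zipper protein, read 6.50 and 6.47 against 6.95 and 6.99, a difference of 0.48 ± 0.20. Both also respond to progesterone, and in both the groups stood apart. Mt1, which binds zinc and other metals, differed by -0.88 ± 0.41 (-1.01 and -0.75 within the numbers; unadjusted p = 0.0647, and 0.000819 under the block). Mt2A, of the same family, differed by -0.56 ± 0.27, with an unadjusted p of 0.00994 under the block, and the cochaperone Fkbp5 by 0.26 ± 0.21. None of the 11 passed the adjusted threshold in either fit.

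Markers of uterine cell types were set beside the clock genes. Counts are over the markers measured, and listed markers not measured are left out. Of all 18166 genes, 9702 had higher means with ormeloxifene. Of 10 smooth muscle markers listed, 8 were measured, bright as befits myometrium (79.4th to 99.8th percentile). All 8 had higher means, at a median of 0.34. In 4 of them the groups did not overlap, against 13.9% of all genes. Of these markers 0 stood at an unadjusted p under 0.05, and under the block 1 did (higher, against 3.74% of all genes). The median signal of the smooth muscle markers was 9.85 and 9.72 on the vehicle arrays and 10.24 and 9.93 on the ormeloxifene arrays. That median thus moved with the groups. Their part in the clock differences was not tested. Endothelium markers were higher in 5 of 6 (median 0.18; 7.30 and 7.60 with vehicle, 7.61 and 7.75 with ormeloxifene) and adipocyte markers in 6 of 7 (0.20; 5.83 and 5.78, 6.10 and 6.06), and their part was not tested either. Stroma markers, at the 89.7th percentile of signal or above, had a median of 0.07 (5 of 9 higher), epithelium markers -0.02 (5 of 11) and immune markers 0.09 (7 of 10). Under the block, 1 stroma marker was higher at an unadjusted p under 0.05, against 3.74% of all genes, and 1 epithelium marker lower, against 3.02%. For endothelium, adipocyte, immune and red blood cell markers that count was 0. Red blood cell markers were dim, at the 28.4th percentile or lower in the 3 measured (Slc4a1, Hemgn and Ahsp).

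**Figure D4:**
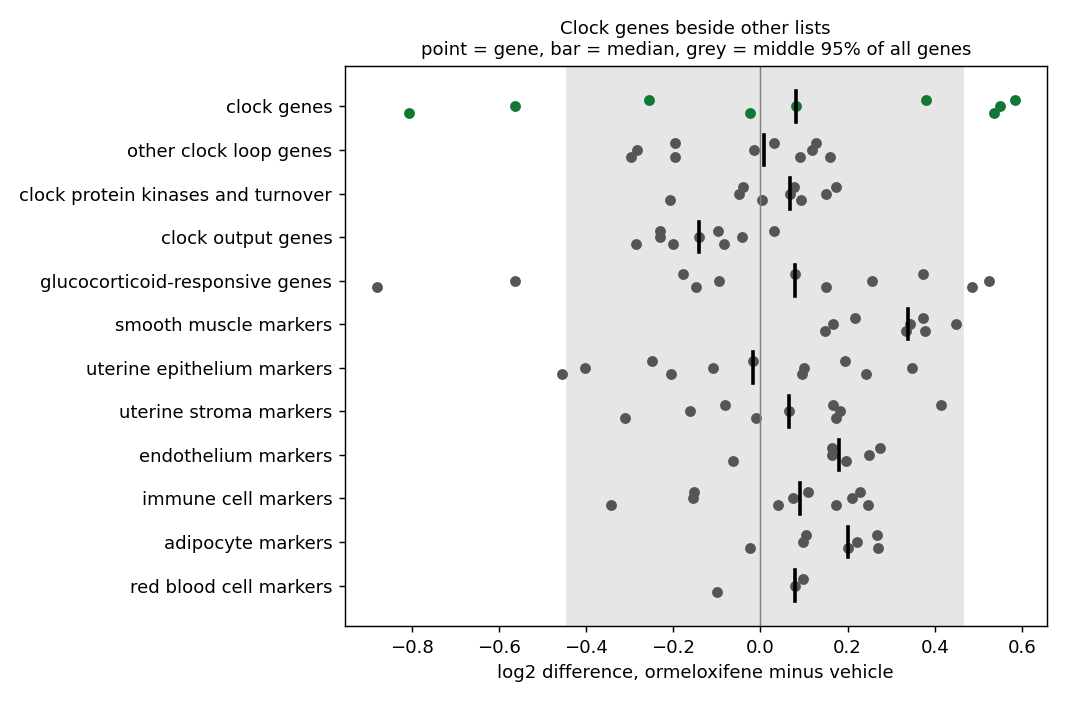
Log2 differences, ormeloxifene minus vehicle, of the clock genes (green) and of the genes of 11 other lists (grey points), with the median of each list as a bar; the grey band holds the middle 95% of all genes tested, from -0.44 to 0.46. Of the clock genes, 5 lie outside the band, and the other loop genes, kinases and outputs all lie inside it.

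The genes whose profile over the 4 arrays was nearest to the most variable members were taken by Euclidean distance of the centred log2 values. Members were left out, as were symbols that begin with LOC or RGD or end in Rik. Nearest to Nr1d1 were Lcn2, which encodes lipocalin 2 (distance 0.10), the vomeronasal receptor gene Vom1r6 (0.11) and the receptor gene P2ry14 (0.11). Lcn2 read 6.42 and 7.10 with vehicle and 6.99 and 7.69 with ormeloxifene, so that replicate 2 lay above replicate 1 in both groups, as it did for Nr1d1. Nearest to Bmal1 were Chsy1, which encodes a chondroitin synthase (0.07), C7h12orf54 (0.12) and the olfactory receptor gene Or2f2 (0.13). Vom1r6 (2.96 to 4.33), C7h12orf54 (3.64 to 4.58) and Or2f2 (3.45 to 4.31) were dim, beside array medians of 6.24 to 6.32 over all genes. Chsy1 read 10.41 and 10.26 with vehicle and 10.08 and 9.47 with ormeloxifene. Nothing is implied about shared control.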

How the data were processed

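The authors deposited a log2 signal for each of 36685 probe sets on 4 arrays; per the submitters' processing notes they used Affymetrix Expression Console (version, summary method and genome build: not given in the sources used here). That scale was read from the values, which ran from 0.92 to 13.59. Column medians ran from 5.67 to 5.93, so quantile normalization was applied over all probe sets. Platform annotation gave 18511 probe sets exactly 1 symbol, 575 several and 17599 none; 18394 were matched by gene number to GRCr8, for names only. For 291 genes with several probe sets the brightest was kept, leaving 18166. limma 3.58.1 in R 4.3.3 (lmFit, eBayes, two-sided, Benjamini-Hochberg over all genes, threshold 0.05) was tested on simulated data. The simulated arrays varied independently, with no effect of the replicate number, so the fits were not tried under such an effect. Residual degrees of freedom were 2, and 7.55 after moderation (1 and 8.15 with the replicate number as a block). P-values measure spread between the labelled replicates. The number of arrays limits the precision.

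All members were named, with the 4 genes of smallest p from each other clock list and the glucocorticoid list, and the 3 nearest profiles for the 2 members of widest range. Lists and members were chosen with earlier results of these data known. Nampt, Ciart and Fkbp5 were named after their values were seen. Deviations from group means correlated at 0.475 between arrays of the same number.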

Additional observations from a re-analysis of the deposited data

How the results depend on the processing

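Of 108 member differences recomputed under 12 alternatives, 106 kept their direction and their side of the adjusted threshold. The exceptions were Per1 without ormeloxifene replicate 2 and Per2 without vehicle replicate 1; with an array left out Per1 ran from -0.11 to 0.059 and Per2 from -0.23 to 0.39, and the cause was not tested. Many of the 108 directions were fixed in advance, since some alternatives cannot change a difference. These were the replicate block, all probe sets tested, probe sets averaged, the lowest genes by signal left out, and eBayes trend and robust. Bmal1 stayed at -0.56 in each, and only the side of the adjusted threshold could move. The block on the values as deposited likewise repeated their difference without it (-0.55 for Bmal1). Clock genes past the adjusted threshold numbered 0 in every setting tried. At an unadjusted p under 0.05 the higher clock genes numbered 0 on the values as deposited, with arrays centred on their medians and with all probe sets tested, 4 with the replicate block, 3 with the replicate block on the values as deposited and 1 in each leave-one-out setting. The lower ones numbered 2 with the replicate block on either scale and 1 to 2 with an array left out. The median of Bmal1, Npas2 and Nfil3 ran from -0.88 to -0.21 with an array left out, and that of Dbp, Tef, Nr1d1 and the Per genes from 0.29 to 0.42.

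Over all genes, calls past the adjusted threshold were 3 higher and 2 lower with the replicate block, 40 and 44 with the replicate block on the values as deposited, 3 and 1 with the lowest 25% of genes by signal left out or with eBayes trend and robust, and 1 and 0 with medians centred or probe sets averaged; with an array left out they ran from 0 to 2 higher and 0 to 1 lower. Genes at an unadjusted p under 0.05 numbered 142 on deposited values, 1228 with the replicate block, 1163 with that block on deposited values, 888 with all probe sets and 309 to 945 with an array left out. A group left with 1 array was taken to vary like the other. Fits with an array left out had no block, so gaps between the replicate numbers entered their differences. The table gave no signal over background, and dim probe sets are given by percentile only.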
